A study of Mus musculus with 2 samples.

Results

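The open chromatin around 9 genes was examined in the livers of *Mettl3*-HKO mice. The genes encode transcription factors that define hepatocyte identity and are *Hnf4a*, *Foxa1*, *Foxa2*, *Foxa3*, *Cebpa*, *Cebpb*, *Onecut1*, *Onecut2* and *Prox1*. ATAC-seq cuts accessible DNA with the Tn5 transposase, so that the read count over a region reflects how open its chromatin is. A region was taken as a member when the transcription start site (TSS) closest to it was that of one of these genes, and 48 of the 69549 distinct regions of the series met this. A promoter region had its centre within 1000 bp of that TSS, which held for 10 members in 8 genes, and the other 38 members lay farther away.

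*Mettl3*-HKO mice carry *Mettl3* flox/flox alleles and an *Alb*-*Cre* transgene (*Mettl3* flox/flox *Alb*-*Cre*+/−), and the control mice carry the *Mettl3* flox/flox alleles alone. All were C57BL/6 mice of 8 weeks on normal chow, and the livers of 4 mice were pooled into 1 library per genotype. The albumin promoter drives Cre in hepatocytes, and the study describes the deletion as hepatocyte-specific. *Mettl3* in the other cell types of the liver was not measured here. Only the *Mettl3*-HKO mice carry Cre, and effects of Cre and of the deletion cannot be told apart in this series. With 1 pooled library per group no value has a replicate error and no test across mice is possible, so every comparison is between these libraries, called the flox/flox and the HKO library. Each log2 ratio divides HKO by flox/flox and was computed from the read counts with 1 read added to each and scaled to the totals behind the authors' RPM. The interval given with it is the 95% Clopper-Pearson interval, which covers counting error only. Duplicate reads were kept in peak calling, and whether the counts hold them is not given, so reads may not all be independent molecules. Positions are on GRCm38.

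HNF4A is a nuclear receptor required for the hepatocyte programme. The FOXA proteins are pioneer factors, which bind their sites in closed chromatin, and C/EBP, ONECUT and PROX1 proteins bind with them at liver enhancers and at each other's genes. These factors are not confined to hepatocytes. FOXA1, FOXA2 and ONECUT1 are also made in cholangiocytes, C/EBPβ in macrophages and PROX1 in lymphatic endothelium.

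The sequences shown are the 250 bases before 4 RefSeq starts of GRCm38.p6 at which the libraries differed in different ways. *Hnf4a* has 2 starts, an upstream one (P2, used in the fetal liver, pancreas and gut) and a downstream one (P1, used in the adult liver), and both windows lie wholly within a region. The P2 window is chr2:163506607-163506856 on the plus strand and the P1 window is chr2:163546905-163547154 on the plus strand. The *Foxa1* window, chr12:57546112-57546361 on the minus strand, belongs to the gene with the lowest summed ratio. The *Onecut1* window, chr9:74861671-74861920 on the plus strand, belongs to the promoter whose ratio was nearest to 0. All are written 5′ to 3′, and capitals mark a forkhead motif where the window holds one.
Hnf4a P2: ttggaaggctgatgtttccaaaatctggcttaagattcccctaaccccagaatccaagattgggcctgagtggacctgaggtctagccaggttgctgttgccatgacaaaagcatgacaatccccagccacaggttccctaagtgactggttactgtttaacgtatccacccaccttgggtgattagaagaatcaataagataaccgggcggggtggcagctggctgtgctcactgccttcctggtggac
Hnf4a P1: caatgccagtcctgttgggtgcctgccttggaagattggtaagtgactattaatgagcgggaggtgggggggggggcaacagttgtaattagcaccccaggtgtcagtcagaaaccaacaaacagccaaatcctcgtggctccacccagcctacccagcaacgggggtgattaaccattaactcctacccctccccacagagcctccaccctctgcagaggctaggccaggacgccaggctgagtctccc
Foxa1: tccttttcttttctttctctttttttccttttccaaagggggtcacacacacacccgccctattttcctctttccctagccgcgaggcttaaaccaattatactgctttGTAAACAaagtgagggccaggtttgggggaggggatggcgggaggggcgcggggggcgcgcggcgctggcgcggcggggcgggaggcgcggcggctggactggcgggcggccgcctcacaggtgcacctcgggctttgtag
Onecut1: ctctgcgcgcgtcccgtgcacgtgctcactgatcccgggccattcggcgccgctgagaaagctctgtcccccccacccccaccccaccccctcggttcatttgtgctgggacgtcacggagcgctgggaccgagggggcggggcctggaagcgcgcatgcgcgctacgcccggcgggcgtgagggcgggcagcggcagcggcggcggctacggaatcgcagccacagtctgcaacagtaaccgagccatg
RefSeq starts with a promoter sequence were available for 8 of the 9 genes, 12 in all, and for none of *Onecut2*, although RefSeq annotates that gene. Letters of 5 factor families were searched on both strands of all 12 windows and of the 32841 RefSeq windows with 250 called bases. The forkhead motif TGTTTAC was found in *Foxa1* on the strand opposite to the one written, which reads GTAAACA there. This motif lies 141 to 135 bp before the start and outside both promoter regions of that gene. It is in 3.17% of all windows. TGTTTGC, in 4.30% of all windows, was found before the downstream start of *Prox1*. None of the 12 windows held the HNF4 motif CAAAGTCCA (0.384% of all windows), the C/EBP motifs TTGCGCAA (0.164%) and TTGCACAA (0.895%), the ONECUT motifs ATCAATCA (0.670%) and ATCGATC (0.301%) or the HNF1 motif GTTAATNAT (0.737%). These are matches of letters, and no match says only that these letters are not in the window. GC content was 51.2% in the P2 window of *Hnf4a*, 57.6% in its P1 window, 62% for *Foxa1* and 71.6% for *Onecut1*, with a median of 52.4% over all windows.

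The libraries differed over the whole series, and the member values are to be read against that. Read totals were inferred from the authors' counts and RPM, to the rounding of the RPM, as 52826202 (flox/flox library) and 58038305 (HKO library). Of these totals, 31.7% lay on regions in the flox/flox library and 22.3% in the HKO library. The median log2 ratio was −0.38 over all regions, −0.56 over the 14387 promoter regions and −0.27 over the 55162 others. The ratio also varied with signal. Among other regions the median went from 0.86 in the weakest 10% by mean RPM to −0.67 in the strongest 10%, and among promoter regions from 0.15 to −0.65. Counts after centring on the overall median are given for the members and for the promoter regions of the other transcription factor, hepatocyte and endothelial lists. In whole liver with 1 library per genotype, fewer hepatocytes, less accessible chromatin per hepatocyte and a technical difference between libraries cannot be told apart. The promoter region of *Mettl3* had 566 reads in the flox/flox library and 392 in the HKO library (log2 ratio −0.66), which does not check the deletion, since accessibility of a promoter does not measure loss of exons.

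All 10 member promoter regions had a log2 ratio below 0, as did 83.9% of all promoter regions. Their median was −0.84, with a range from −1.19 to −0.18, beside −0.56 for all promoter regions, of which the middle 50% lay between −0.85 and −0.25. Both promoter regions of *Foxa1* and those of *Foxa2* and *Onecut2* were at least 2-fold lower in the HKO library, that is 4 of 10, beside 16.3% of all promoter regions. None was at least 2-fold higher, beside 4.07% of all promoter regions. Once ratios were centred on the overall median, 0 of the 10 were at least 2-fold lower and 0 at least 2-fold higher, beside 5.00% and 6.90% of all promoter regions. The interval lay wholly below the median of all regions for 8 of 10 (46.0% of all promoter regions) and wholly above it for 1, that of *Onecut1* (17.6% of all promoter regions). These 10 regions were stronger than usual, with a median fold enrichment of 45.8 in the flox/flox library and 27.1 in the HKO library. The medians of all promoter regions were 25.8 and 16.7. More reads give narrower intervals, so these shares do not compare regions of like signal. A peak was called at all 10 in both libraries.

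**Figure D1:**
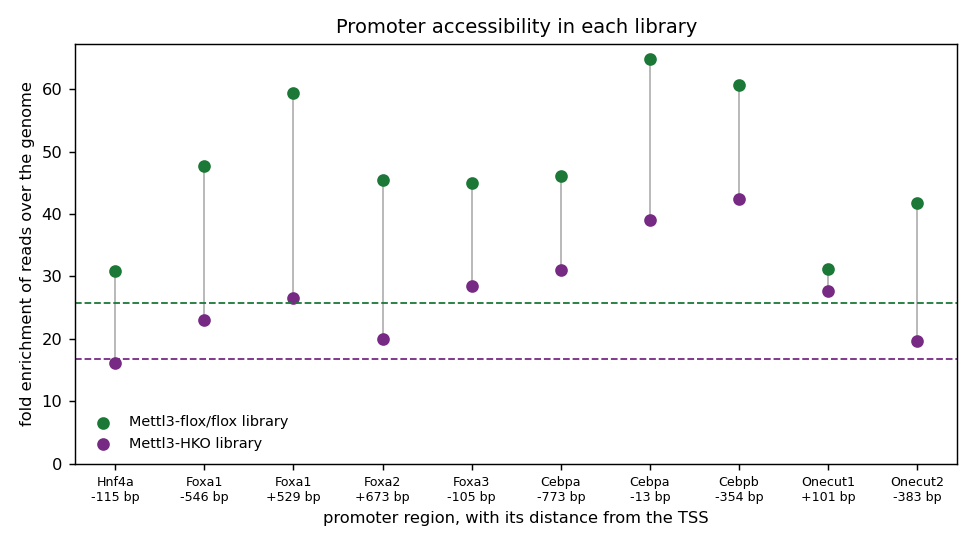
Fold enrichment of reads over the genome, as deposited by the authors, at the 10 promoter regions in the flox/flox library (green) and the HKO library (purple), 1 value per library, with dashed lines at the medians of all promoter regions (25.8 and 16.7). Every region was lower in the HKO library, and *Onecut1* had the smallest gap, from 31.3 to 27.7.

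Among the 38 members away from promoters 30 were below 0 and 8 above it, beside 59.8% below 0 among all other regions. The member nearest to the 1000 bp limit on the promoter side is centred 773 bp from the TSS of *Cebpa* (−0.57), and the nearest beyond it is 1681 bp from that of *Foxa2* (−1.56). Their median log2 ratio was −0.81 (range −2.32 to 2.05) beside −0.27. On the authors' scale 13 of 38 were at least 2-fold lower, beside 18.8% of all other regions, and 3 were at least 2-fold higher, beside 15.6%. After centring, 8 were at least 2-fold lower and 3 higher, beside 8.65% and 23.5% of all other regions. The interval lay wholly below the median of all regions for 21 of 38 (26.7% of all other regions) and wholly above it for 7 (36.6%). The member regions were also stronger than usual, with a median fold enrichment of 22.0 in the flox/flox library and 12.9 in the HKO library, beside 9.78 and 8.94 for all other regions. Set against the median of regions of the same class and the same signal class (regions of each kind cut into 10 equal classes by mean RPM), 33 of the 48 members were lower and 15 higher, with a median difference of −0.34 on the log2 scale. That median difference was −0.21 for the 10 promoter regions and −0.37 for the 38 others. By gene, all regions of *Hnf4a*, *Foxa1* and *Foxa3* lay below the median of their signal class, as did 7 of 8 of *Foxa2* and 7 of 11 of *Onecut2*. Above it lay 5 of 8 regions of *Onecut1*, 2 of 3 of *Cebpa*, 2 of 3 of *Prox1* and 1 of 2 of *Cebpb*.

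**Figure D2:**
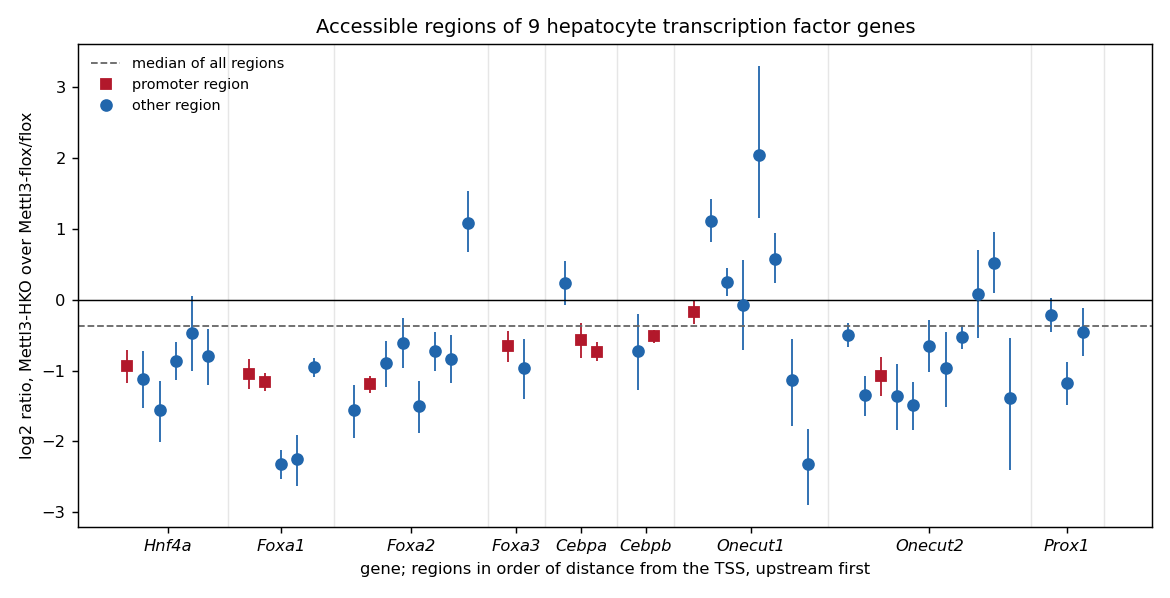
Log2 ratio (HKO over flox/flox) for each of the 48 regions, grouped by gene and ordered by distance from the TSS, with red squares for promoter regions, blue circles for the others, bars for the 95% counting interval and a dashed line at the median of all regions (−0.38). The points of *Hnf4a*, *Foxa1*, *Foxa3*, *Cebpb* and *Prox1* all lie below 0, with intervals of *Hnf4a* and *Prox1* that reach past 0 at 1 region each, and *Onecut1* spans the range from −2.31 to 2.05.

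*Hnf4a* had 6 regions, and all 6 had a lower RPM in the HKO library. Summed over them, 1276 reads lay in the flox/flox library and 718 in the HKO library (log2 ratio −0.96, interval −1.10 to −0.83). Over the 27433 genes with a region, 15.4% had a summed ratio as low, and the median was −0.43. The promoter region, on chromosome 2 from 163546722 to 163547423, is centred 115 bp before the TSS and reaches into intron 1. It had 418 and 239 reads, a log2 ratio of −0.94 (interval −1.18 to −0.71). The lowest ratio was in intron 3, from 163554495 to 163554812, with 171 and 63 reads (−1.56, interval −2.02 to −1.15). A peak was called there in the flox/flox library only, and the same was true of a region in intron 1, 1771 bp past the TSS, with 159 and 80 reads (−1.12). The strongest region away from the promoter, also in intron 3 (163555132 to 163555765), had 313 and 189 reads (−0.86). A weaker one in intron 7 had 72 and 57 reads, and its interval reaches to 0.049, so that it includes 0. The sixth, past the gene from 163574388 to 163574707, had 143 and 90 reads (−0.80).

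The upstream start of *Hnf4a* lies 40330 bp before the TSS used for this gene in the deposited table. Regions near it are assigned to other genes and are not members. The region over this start, from 163506592 to 163506929, had 64 reads in the flox/flox library and 94 in the HKO library, with a peak in both. Its log2 ratio was 0.41 (interval −0.055 to 0.90), above the promoter region over the downstream start, and the intervals of these starts do not overlap. Regions with as weak a signal had a median of −0.23, against −0.62 for promoter regions as strong as that of the downstream start. Another 4 regions within the RefSeq extent of *Hnf4a* lie in intron 1 of an antisense gene (ENSMUSG00000046840). All 4 were below 0, from 275 and 136 reads (−1.15) to 916 and 566 reads (−0.83).

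*Foxa1* had 5 regions with 4679 reads in the flox/flox library and 2028 in the HKO library. The summed log2 ratio of −1.34 (interval −1.42 to −1.27) was the lowest of the 9 genes, and 5.37% of all genes had one as low. The upstream promoter region, on chromosome 12 from 57546381 to 57546954, had 528 and 280 reads (−1.05, interval −1.27 to −0.84). The region over the start, from 57544970 to 57546215, runs into the last intron and had 1432 and 703 reads (−1.16, interval −1.29 to −1.03). The lowest ratios lay in the body of the gene. A region from 57543068 to 57543557, centred in the last exon 2809 bp past the TSS, had 1075 and 235 reads, 5.01-fold lower in the HKO library (log2 ratio −2.32, interval −2.54 to −2.12). Its fold enrichment was 114 in the flox/flox library and 22.7 in the HKO library. Beside it, from 57542672 to 57542919 in the same exon, 359 and 82 reads gave a ratio of −2.25 (interval −2.63 to −1.92), with a peak in the flox/flox library only. Of all other regions, 0.977% and 1.13% had ratios as low as these. The region past the end of the gene, from 57538405 to 57539793, had 1285 and 728 reads (−0.95, interval −1.09 to −0.82), so its interval lay above those of both exon regions.

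*Foxa2*, whose product opens liver enhancers together with FOXA1, had 8 regions with 3000 and 1656 reads in all (summed log2 ratio −0.99, interval −1.08 to −0.91). Its promoter region on chromosome 2 runs over 1875 bp from 148045359 to 148047233 and covers the 3 RefSeq starts of the gene. It had 1650 reads in the flox/flox library and 792 in the HKO library, the lowest promoter ratio among the members (−1.19, interval −1.32 to −1.07). Upstream, 1681 bp before the TSS, 222 and 82 reads gave −1.56, with a peak in the flox/flox library only. Of the 6 intergenic regions downstream, 5 were below 0, with ratios from −1.51 (229 and 88 reads, 16551 bp from the TSS) to −0.61 (164 and 118 reads). The strongest of them had 270 and 179 reads (−0.73). The farthest, 33449 bp from the TSS from 148013205 to 148013835, had 67 reads in the flox/flox library and 158 in the HKO library. Its log2 ratio of 1.09 (interval 0.68 to 1.54) was the only one above 0 at the 3 FOXA genes. *Foxa3*, the third member of the family, had 2 regions on chromosome 7 with 568 and 377 reads. The promoter region, from 19023394 to 19023893, had 434 and 302 reads (−0.66, interval −0.88 to −0.44), and the region in the last intron had 134 and 75 reads (−0.96).

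**Figure D3:**
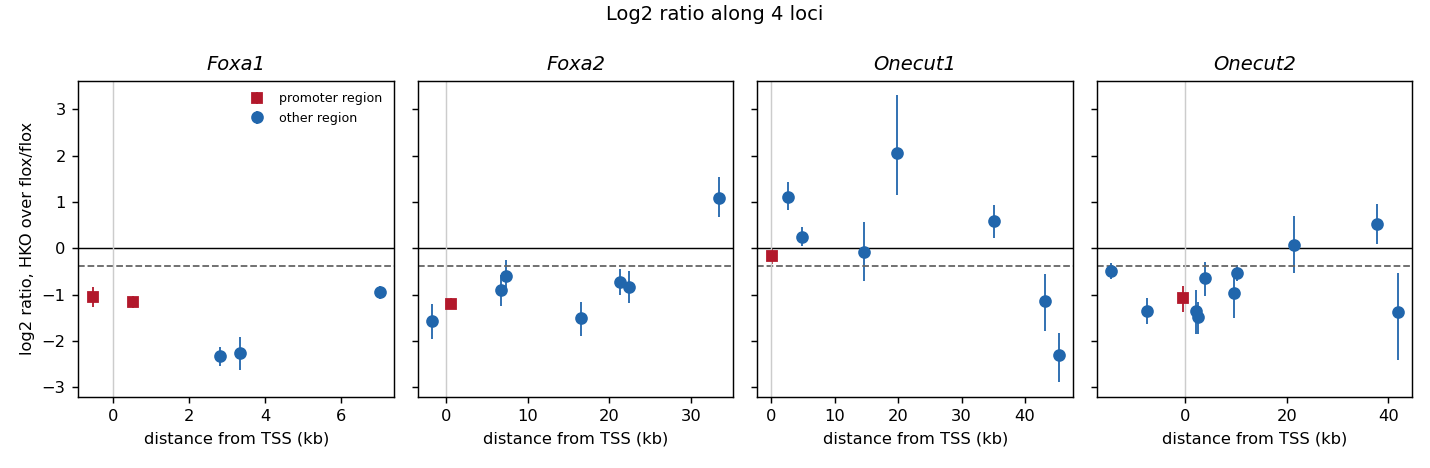
Log2 ratio with 95% counting intervals against distance from the TSS in kb for the regions of *Foxa1*, *Foxa2*, *Onecut1* and *Onecut2* (negative distances are upstream, the dashed line is the median of all regions, −0.38). The pair of low points of *Foxa1* at 2.81 and 3.33 kb lies in its last exon, and at *Onecut1* the first 6 regions reach from −0.18 to 2.05 while the last 2 lie at −1.14 and −2.31.

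The promoter regions of the C/EBP genes lay between −0.73 and −0.52, near the median of all promoter regions (−0.56). *Cebpa*, which encodes a bZIP factor of differentiated hepatocytes, had 3 regions on chromosome 7 with 1647 and 1209 reads (summed log2 ratio −0.58, interval −0.69 to −0.47). The region over the start, from 35118820 to 35119761, had 1180 and 779 reads (−0.73, interval −0.87 to −0.60). The second promoter region, centred 773 bp before the TSS, had 313 and 231 reads (−0.57). Both overlap another gene, ENSMUSG00000108624, as annotated by the authors. At 2584 bp before the TSS the order was turned, with 154 reads in the flox/flox library and 199 in the HKO library (0.23, interval −0.077 to 0.55) and a peak in the HKO library only. *Cebpb*, which is induced in inflammation and the acute phase response, had the promoter region with the most reads among the members. It spans 1899 bp on chromosome 2 from 167687612 to 167689510 and had 2226 and 1708 reads (−0.52, interval −0.61 to −0.43). Of all promoter regions, 54.4% had a ratio as low. Its distal region, 8846 bp upstream, had 77 and 51 reads (−0.72).

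*Onecut1*, which encodes HNF6, differed from the other members in having as many regions above 0 as below, 4 of 8 each. A region entered the series through a peak in either library. Of these 8, 3 had a peak in both libraries (ratios −0.18, 0.25 and 0.58), 3 in the flox/flox library only and 2 in the HKO library only. The split and its extremes thus depend in part on peak calling. Summed, 1479 reads lay in the flox/flox library and 1698 in the HKO library (log2 ratio 0.063, interval −0.038 to 0.17). This interval lay above those of all the other 8 genes, and with the strongest region in place of the sum the ratio was −0.18, that of the promoter region. On that measure its interval overlapped those of *Prox1* (−0.22, interval −0.46 to 0.018) and *Onecut2* (−0.50, interval −0.67 to −0.33). The promoter region on chromosome 9 from 74861548 to 74862498, centred in the 5′ UTR, had 574 and 558 reads (−0.18, interval −0.35 to −0.0059), and 78.3% of all promoter regions had a ratio as low. The promoter region and the regions in the last intron of *Onecut1* also lie in the last intron of another gene, ENSMUSG00000093662, as annotated by the authors. In the last intron of *Onecut1*, 2620 bp past the TSS, a region from 74864289 to 74864794 had 129 reads in the flox/flox library and 308 in the HKO library (1.11, interval 0.82 to 1.43), with a peak in the HKO library only. Regions with as strong a signal had a median of −0.61. The strongest intronic region, from 74866317 to 74867306, had 373 and 488 reads (0.25, interval 0.055 to 0.45). The highest ratio of all members, 2.05 (interval 1.16 to 3.30), rests on 10 and 49 reads at 19782 bp from the TSS, again with a peak in the HKO library only. Regions with as weak a signal as this one had a median of 0.28. Further out the direction differed between neighbours. The region at 35046 bp had 108 and 178 reads (0.58), that at 43113 bp had 71 and 35 (−1.14), and that at 45285 bp, from 74907061 to 74907353, had 171 and 37 (−2.31, interval −2.90 to −1.82). Of all other regions, 0.993% had a ratio as low as the last, and a peak was called there in the flox/flox library only.

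*Onecut2*, its paralogue, had the most regions, 11 on chromosome 18, with 2734 and 1796 reads (summed log2 ratio −0.74, interval −0.83 to −0.66). Only 1.60% of genes had as many regions or more. The promoter region from 64339782 to 64340180 had 321 and 166 reads (−1.08, interval −1.37 to −0.81). The strongest distal regions, 14584 bp upstream and 10300 bp downstream of the TSS, each had 636 reads in the flox/flox library and 495 and 486 in the HKO library (−0.50 and −0.52). In the last intron near the start, 260 and 101 reads gave −1.49 (interval −1.85 to −1.16) at 2577 bp, and 134 and 57 reads gave −1.35 at 2086 bp. The broad region 7439 bp upstream had 351 and 151 reads (−1.35). The 2 regions above 0 lay 21464 and 37877 bp into the gene, with 43 and 50 reads (0.077) and 76 and 120 reads (0.52, interval 0.097 to 0.96). Summed, the intervals of *Onecut1* and *Onecut2* do not overlap.

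*Prox1*, a homeobox gene that acts early in liver development, had 3 member regions on chromosome 1 and no promoter region, because the region over the authors' TSS of *Prox1* is assigned to a divergent gene (ENSMUSG00000079045). The 3 regions had 746 and 554 reads (summed log2 ratio −0.56, interval −0.73 to −0.40) and lie in the last intron of that divergent gene. The lowest, 4601 bp upstream of the *Prox1* TSS from 190174993 to 190175639, had 277 and 134 reads (−1.18, interval −1.49 to −0.88). The strongest, 33911 bp upstream, had 306 and 289 reads (−0.22, interval −0.46 to 0.018). The third had 163 and 131 reads (−0.45). The region over the authors' TSS, from 190170027 to 190170817, covers neither of the RefSeq starts of *Prox1*, which lie on either side of it, and had 320 and 240 reads (−0.55, interval −0.80 to −0.30). In all, 8 regions inside *Prox1* are assigned to other genes, 5 below 0 and 3 above, with ratios from −0.60 to 0.84 and 974 and 882 reads together.

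Of the 48 members, 11 had a peak in the flox/flox library only and 5 in the HKO library only. All 16 lay away from promoters. The 5 were at *Hnf4a*, *Cebpa*, *Prox1* and, for 2 of them, *Onecut1*, and those at *Hnf4a* and *Prox1* had ratios below 0 (−0.47 and −0.45), so that a peak call and the ratio did not always point the same way. Over all regions the shares were 16.8% and 21.5%. Per length, the member regions of *Foxa1* were the most open in the flox/flox library, with 22.4 RPM per kb, followed by *Cebpb* (20.2), *Cebpa* (19.8) and *Foxa3* (13.9), and *Onecut1* was last with 7.18. In the HKO library *Cebpb* (14.0) and *Cebpa* (13.2) came first, *Foxa1* had 8.85, and *Hnf4a* was last with 4.87. Without replicates it cannot be said whether neighbours in these orders differ.

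A list of 24 other liver transcription factors was set beside the members, and 20 of them had a promoter region (none for *Hnf4g*, *Atf5*, *Creb3l3* and *Nfia*). Their 29 promoter regions had a median log2 ratio of −0.75 (range −1.76 to −0.0097), and 10 were at least 2-fold lower and 0 at least 2-fold higher, beside 16.3% and 4.07% of all promoter regions. With centred ratios 4 of the 29 were at least 2-fold lower and 0 higher, beside 5.00% and 6.90%. Away from promoters, 25 of 115 regions were at least 2-fold lower and 4 higher on the authors' scale (18.8% and 15.6% of all other regions), with a median of −0.65. *Nr1i3*, which encodes the xenobiotic receptor CAR, had 333 and 107 reads at its strongest promoter region (−1.76, interval −2.10 to −1.46). *Gata4* had 615 and 300 reads (−1.17), and *Ppara*, the fatty acid receptor, 1865 and 971 (−1.08). *Cebpd* (1502 and 971 reads, −0.76) and *Cebpg* (1147 and 982 reads, −0.36), other C/EBP genes, had ratios nearer to 0.

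Markers of liver cell types were counted in the same way. All 10 hepatocyte markers had a promoter region, and their 12 regions had a median log2 ratio of −0.56 (range −2.30 to 0.015), with 3 at least 2-fold lower, or 2 with centred ratios (16.3% and 5.00% of all promoter regions). *Alb*, whose promoter drives Cre in these mice, had 480 and 533 reads (0.015), whereas *Ass1*, of the urea cycle, had 919 and 340 reads (−1.57) at its stronger promoter region. Endothelial markers had higher ratios, with 7 of 8 having a promoter region, all above 0 (median 1.60, range 0.14 to 1.78, 5 at least 2-fold higher with or without centring, beside 4.07% and 6.90% of all promoter regions), on 11 to 48 reads in the flox/flox library. Promoter regions as weak as these, in the 2 lowest signal classes, had medians of 0.15 and −0.18. Summed over all their regions they had 32.9 RPM in the flox/flox library and 41.3 in the HKO library. Macrophage markers, 2 of 8 with a promoter region, had a median of 1.07 over 3 regions, but summed to 18.3 and 12.3 RPM. Stellate markers (2 of 8) summed to 16.0 and 6.56 RPM, of which the *Reln* promoter held 690 and 132 reads, while their other 4 regions had 154 and 249 reads, and the cholangiocyte markers (3 of 8) had 2642 and 2556 reads in all. No lymphocyte marker had a promoter region, and *Krt7*, *Krt19* and *Cftr*, which define cholangiocytes, *Cd68* and *Timd4* of macrophages, and *Des*, *Lrat*, *Pdgfrb* and *Dcn* of stellate cells had no region. The part of these cell types in the member values was not tested.

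**Figure D4:**
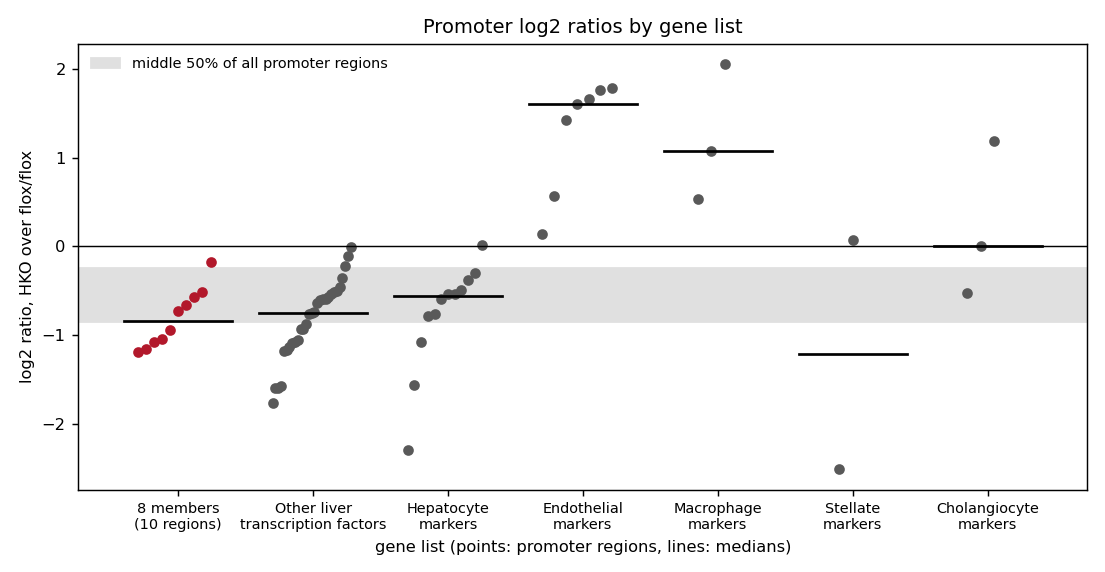
Log2 ratio (HKO over flox/flox) at the promoter regions of the members (red) and of the comparison lists (grey), 1 point per region, with lines at the medians and a grey band over the middle 50% of all promoter regions (−0.85 to −0.25). The members and the other liver transcription factors lie below 0, and the 7 endothelial regions lie above it.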

How the data were processed

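The ATAC-seq data comprise 1 pooled liver library of each genotype, *Mettl3* flox/flox and *Mettl3*-HKO. Per the study's methods and the submitters' processing notes, adaptors were trimmed with skewer, reads were aligned to GRCm38 with BWA, and peaks were called with MACS2 in each library with duplicates kept. The counting of reads on merged regions and any shift for the Tn5 cut are not given in the sources used here. The authors deposited raw counts per region and library, RPM values (1 read added to each count), a fold enrichment (read density in the region divided by that in the genome), and 1 TSS per gene. The log2 column that the authors deposited is their own comparison and served only to check the scale (largest difference 1.32e-05). Of 74821 rows, 5272 repeated a region and were dropped, and starts were made to count from 1. No per-sample column was left without a sample.

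Ratios, Clopper-Pearson intervals and lists were computed with Python 3.11.15, numpy 2.4.6, pandas 2.3.3 and scipy 1.17.1, plots with matplotlib 3.10.9, and the scripts were tested on simulated data. The median region had 85 counts in the flox/flox library and 81 in the HKO library. A region was called when it differed at least 2-fold, and no test was run. All members were named, with their promoter regions and the strongest, highest and lowest other regions of at least 20 counts, and further regions were named after their values were seen. Of the other transcription factors, those at least 2-fold changed at the strongest promoter region and the 3 with the highest signal were named. The gene families, lists and motifs were chosen with earlier results of these data known. Alternatives covered the scaling, added count (10), window (500 and 2000 bp), fold (1.5), peak calls, signal and value per gene.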

Additional observations from a re-analysis of the deposited data

How the results depend on the processing

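Scaling decided most counts. Centring on the median of all regions added 0.38 to every log2 ratio, scaling to the counts in regions 0.51, and centring on the strongest 10% of promoter regions 0.65. In that order, the member promoter regions at least 2-fold lower went from 4 to 0, 0 and 0 of 10 (16.3% of all promoter regions to 5.00%, 3.15% and 1.99%). The other member regions at least 2-fold lower went from 13 to 8, 5 and 3 of 38 (18.8% of all other regions to 8.65%, 6.42% and 4.69%), and those at least 2-fold higher from 3 to 3, 5 and 5 (15.6% to 23.5%, 26.7% and 30.2%). The medians became −0.46, −0.33 and −0.19 for promoter regions, −0.44, −0.30 and −0.17 for other regions, −0.38, −0.24 and −0.11 for the other liver transcription factors, and −0.19, −0.053 and 0.082 for the hepatocyte markers, the last with its sign turned. Since a scaling adds the same value to every gene, centring on the strongest promoters turned the sign of each summed ratio between −0.65 and 0, those of *Cebpa* (0.065), *Cebpb* (0.12) and *Prox1* (0.082). With a 1.5-fold threshold 7 of 10 promoter and 24 of 38 other regions were lower, beside 47.8% of all promoter regions and 36.5% of all others. Taking the strongest region of a gene in place of the sum turned *Onecut1* from 0.063 to −0.18 and moved *Prox1* to −0.22, *Foxa1* to −1.16, *Foxa2* to −1.19, *Cebpa* to −0.73 and *Onecut2* to −0.50. Keeping regions with a peak in both libraries left 22 of the 38 other members, 5 lower and 1 higher (15.7% and 3.76% of all other regions so kept), with medians of −0.76 for them and −0.69 for the other transcription factors. A 500 bp window had 1 of 6 promoter regions (15.9% of all) and 16 of 42 others (18.8%) lower, with a promoter median of −0.70. A 2000 bp window had 6 of 12 (17.2%) and 11 of 36 (18.6%) lower, with medians of −0.99 for promoter regions, −0.76 for others and −0.63 for the hepatocyte markers. Adding regions inside a member gene that another TSS claims, an alternative chosen after seeing the data, gave −0.73 for promoter regions and −0.72 for others. The cause of these shifts was not tested beyond their construction. No paired analysis was possible because each group has 1 library, and for the same reason no replicate could be left out. Regions with few reads, such as the one with 10 and 49 reads at *Onecut1*, carry the widest intervals.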
